A study of Mus musculus with 6 samples.

Results

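The genes described are 7 transcription regulators of red blood cell and megakaryocyte development (Gata1, Tal1, Nfe2, Klf1, Gfi1b, Zfpm1 and Lmo2) and 3 genes of erythroid cells (Epor, Car2 and Hbb-b2). They were found by gene name in the deposited expression table, and all 10 names matched 1 row each of the 21307 rows, none of them merged with another gene. Of the 7 regulators, 4 (Nfe2, Gata1, Tal1 and Lmo2) stood higher by 2-fold or more in 4-OHT, as did 10.4% of all genes compared, Gfi1b and Zfpm1 differed by less than 2-fold, and Klf1 was near 0 in both conditions. Of the 3 erythroid genes, Epor was 2.14-fold higher in 4-OHT, Hbb-b2 was 1.76-fold higher and Car2 was 1.70-fold lower. Each condition has 1 value per gene, so these are differences of size, without a replicate check and without a test.

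Red cells and megakaryocytes, the parents of platelets, descend from a shared progenitor. GATA1 binds DNA with its zinc fingers, recruits the cofactor FOG1 (the product of Zfpm1), and joins TAL1, LMO2, LDB1 and an E protein in a complex that switches on lineage genes. NF-E2, GFI1B and FOG1 act in both lineages, whereas KLF1 (EKLF) drives the red cell program and the adult beta-globin genes in particular. Several of these factors also serve other cells: GATA1 is used by mast cells, basophils and eosinophils, TAL1 by mast cells and endothelium, and LMO2 by early progenitors and endothelium. EPOR is the receptor of erythropoietin, carbonic anhydrase 2 interconverts carbon dioxide and bicarbonate in red cells and other cell types, and Hbb-b2 encodes a beta chain of adult haemoglobin.

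RNA was sequenced from B cells isolated from bone marrow of mice aged 6 to 8 weeks, before tumours arise, on a C57BL/6 x 129S1/SvlmJ background and cultured with interleukin 7 at 5 ng/ul. All mice carried Eµ-myc, a transgene that drives MYC from an immunoglobulin enhancer active in B cells, together with loxP-flanked (F/F) alleles of Prmt5, an arginine methyltransferase gene, and the inducible recombinase CreER, whose promoter is not given in the labels. In the 4-OHT condition (3 libraries) the cells received 50 nM 4-hydroxytamoxifen for 24 h to delete Prmt5, and in the ethanol condition (3 libraries) they received ethanol instead, with 5 further days of culture in both. No sample analysed here combines 4-OHT with cells that lack CreER or the F/F alleles. The libraries are titled PT in 4-OHT and WT in ethanol, although the characteristics give 1 genotype to all 6, and the labels do not say whether the 3 libraries of a condition came from separate mice.

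The deposited unit is FPKM, fragments scaled to transcript length and library size, which permits levels to be compared between genes. Summed FPKM over the table was 356802 in 4-OHT and 346977 in ethanol, and read depth is unknown. Prmt5 stood at 5.71 FPKM in 4-OHT, against 41.6 FPKM in ethanol, and Myc at 213 FPKM in 4-OHT, against 402 FPKM in ethanol. The labelled cell type was checked on 10 B cell markers, the lowest of them at 18.3 FPKM in 4-OHT and at 29.3 FPKM in ethanol, which summed to 860.3 FPKM in 4-OHT and 1802 FPKM in ethanol. That check cannot show that other cells were absent. The neutrophil markers described below summed to 3500.4 FPKM in 4-OHT and 368 FPKM in ethanol. Macrophage markers without Lyz2 summed to 1807 FPKM in 4-OHT and 788 FPKM in ethanol, and megakaryocyte markers to 1158 FPKM in 4-OHT and 327 FPKM in ethanol. Each ratio between conditions below is the log2 of the quotient of 4-OHT and ethanol after 1 FPKM was added to both. Folds are on the same scale, so that low genes appear to differ by less than they do. Where the level of 1 gene is given as a multiple of another, it is the plain quotient of their FPKM, without the added 1 FPKM. A gene was compared if it averaged 1 FPKM or more over the conditions and was above 0 in each, which held for 10856 genes. Of these, 44.9% had a ratio above 0, 10.4% were higher by 2-fold or more in 4-OHT and 2.58% lower by 2-fold or more, with a median log2 ratio of -0.07 and 90% of genes between -0.82 and 1.34.

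The regulators with the most RNA in 4-OHT were Nfe2 and Lmo2. Nfe2 (mm9, chromosome 15, 103078649 to 103085847), which encodes the p45 subunit of NF-E2, a leucine zipper factor needed for platelet production, stood at 39.8 FPKM in 4-OHT and at 8.88 FPKM in ethanol. It was 4.13-fold higher, at a log2 ratio of 2.05, above 98.7% of the compared genes. Lmo2 (chromosome 2, 103798152 to 103822035), which encodes the bridging protein of the TAL1 complex, stood at 37.5 FPKM in 4-OHT and at 15.5 FPKM in ethanol. Its log2 ratio was 1.22, a 2.33-fold higher level. Both genes were thus already present in the ethanol cultures, and Nfe2 ranked above Zfpm1, Lmo2 and Car2 in 4-OHT and below them in ethanol.

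Gata1 and Tal1 were low in ethanol and several times higher in 4-OHT. Gata1 (chromosome X, 7536386 to 7544941) stood at 7.46 FPKM in 4-OHT and at 1.67 FPKM in ethanol, 3.17-fold higher, at a log2 ratio of 1.66. Tal1 (chromosome 4, 114732132 to 114744360), which encodes the helix-loop-helix factor that binds E-box DNA with E proteins, stood at 5.12 FPKM in 4-OHT and at 1.32 FPKM in ethanol, 2.64-fold higher, at a log2 ratio of 1.40. These ratios lay above 97.4% and 95.6% of the compared genes. Without the added 1 FPKM, the authors' deposited table lists log2 fold changes of 2.16 for Gata1, 1.96 for Tal1 and 2.16 for Nfe2, so that Gata1 and Nfe2, unequal on the scale with the pseudocount, have nearly the same listed fold. The proportion of their levels was nearly equal, with 5.33 times as much Nfe2 as Gata1 in 4-OHT and 5.31 times as much in ethanol.

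**Figure D1:**
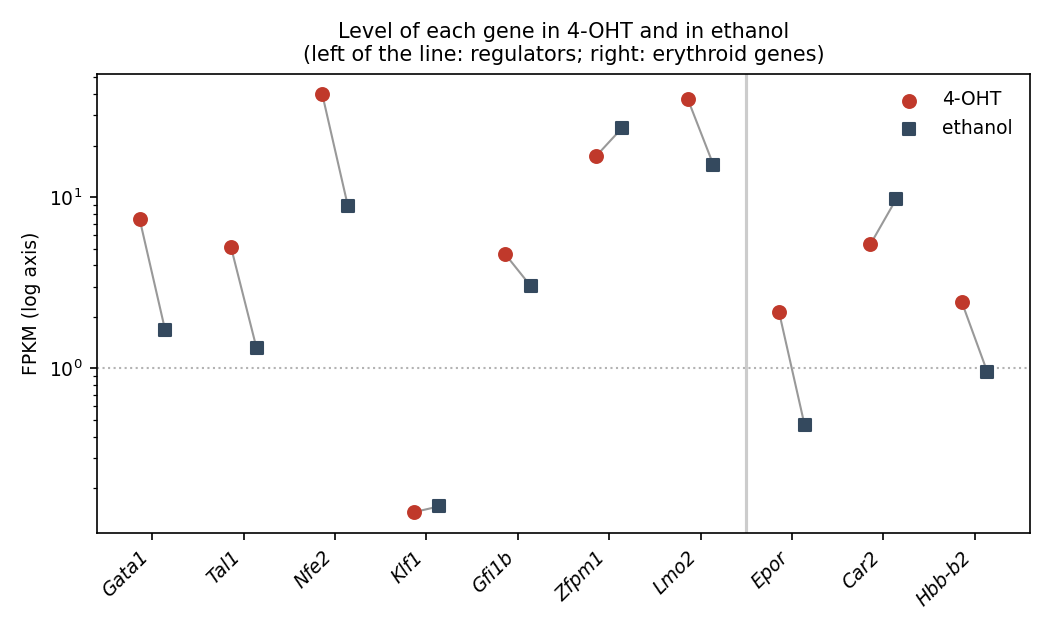
FPKM of each gene (vertical log axis) in 4-OHT (red circles) and ethanol (dark squares), 1 value per condition, joined by a grey line, with regulators left and erythroid genes right of the vertical line and 1 FPKM dotted. Nfe2 stands at 39.8 FPKM in 4-OHT and at 8.88 FPKM in ethanol, Zfpm1 and Car2 are lower in 4-OHT, and Klf1 lies near 0.15 FPKM in both.

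Gfi1b and Zfpm1 were not higher by 2-fold, unlike Gata1. Gfi1b (chromosome 2, 28464970 to 28477502), a zinc-finger repressor gene of red cell and platelet precursors, stood at 4.66 FPKM in 4-OHT and at 3.03 FPKM in ethanol, a 1.40-fold difference with a log2 ratio of 0.49. Zfpm1 (chromosome 8, 124806041 to 124861147), which encodes the GATA1 cofactor FOG1, stood at 17.4 FPKM in 4-OHT and at 25.3 FPKM in ethanol. It was 1.43-fold lower, at a log2 ratio of -0.51, and was the highest of the 10 genes in ethanol. Per length, Zfpm1 RNA was 2.34 times as abundant as Gata1 RNA in 4-OHT and 15.1 times as abundant in ethanol. Klf1 (chromosome 8, 87425827 to 87429194), the regulator most closely tied to red cells, stood at 0.145 FPKM in 4-OHT and at 0.157 FPKM in ethanol. It is the only one of the 10 genes that did not pass the minimum of 1 FPKM, and no difference can be read from values this low.

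The promoters of Gata1, Tal1, Epor and Zfpm1 are printed because the first 3 genes were higher by 2-fold or more in 4-OHT and Zfpm1 was not. Sequences are from the RefSeq promoter table of GRCm38.p6, a later build than the mm9 of the expression table. It matched 6 of the 10 genes (Gata1, Tal1, Klf1, Gfi1b, Zfpm1 and Epor). Nfe2, Lmo2, Car2 and Hbb-b2 had no entry. Each line gives the 250 bases before the start of transcription, 5′ to 3′ on the gene's strand, with GATA motifs (AGATAA, or the same letters with T first, G last or both) and the CACCC motif, the letters bound by KLF and SP factors, in capitals on either strand. The windows are chrX:7967911-7968160 (minus strand) for Gata1, chr4:115056176-115056425 (plus strand) for the first of 2 starts of Tal1, chr9:21963577-21963826 (minus strand) for Epor and chr8:122281891-122282140 (plus strand) for Zfpm1.
Gata1: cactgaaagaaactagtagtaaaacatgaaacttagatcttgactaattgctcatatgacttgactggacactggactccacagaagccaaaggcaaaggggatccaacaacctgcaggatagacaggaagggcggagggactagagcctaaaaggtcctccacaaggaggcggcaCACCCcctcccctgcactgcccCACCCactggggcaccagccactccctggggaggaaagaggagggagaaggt
Tal1: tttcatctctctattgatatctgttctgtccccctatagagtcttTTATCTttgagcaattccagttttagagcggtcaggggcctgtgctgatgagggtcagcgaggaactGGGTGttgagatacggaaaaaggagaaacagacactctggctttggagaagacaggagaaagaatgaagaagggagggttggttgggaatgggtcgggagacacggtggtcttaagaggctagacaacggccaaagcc
Epor: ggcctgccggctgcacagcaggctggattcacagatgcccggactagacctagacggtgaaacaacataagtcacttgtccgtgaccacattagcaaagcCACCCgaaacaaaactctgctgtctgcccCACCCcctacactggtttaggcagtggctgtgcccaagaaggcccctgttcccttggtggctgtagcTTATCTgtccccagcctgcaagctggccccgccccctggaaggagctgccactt
Zfpm1: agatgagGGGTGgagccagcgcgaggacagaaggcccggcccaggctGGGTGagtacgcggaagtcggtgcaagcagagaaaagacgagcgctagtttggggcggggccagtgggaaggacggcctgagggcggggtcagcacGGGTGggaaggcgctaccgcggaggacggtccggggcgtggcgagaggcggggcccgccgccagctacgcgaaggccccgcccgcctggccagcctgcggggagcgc

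Among the 4 windows, those of Tal1 and Epor hold 1 GATA motif each and those of Gata1 and Zfpm1 hold none. CACCC occurs 2 times before Gata1, 1 time before Tal1, 2 times before Epor and 3 times before Zfpm1. The windows of Gfi1b and Klf1 hold 1 GATA motif and 1 CACCC motif each, and the window of the other Tal1 start holds neither. The E-box letters CANNTG, counted apart from any GATA or CACCC match that they overlap, occur in the windows of Gata1, Klf1, Gfi1b and Epor, and the NF-E2 letters TGAGTCA in none of those searched. Of all 32851 promoter windows of the same length, 26.5% hold a GATA motif, 52.0% CACCC, 66.2% an E-box and 4.46% the NF-E2 letters, so none of the first 3 motifs is rare.

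The partners of these factors differed in both directions. Of a list of 30 partners and other regulators, 29 were compared, 3 were higher by 2-fold or more and 2 lower by 2-fold or more in 4-OHT, with a median log2 ratio of 0.05 (15 higher, 14 lower), against 10.4% higher and 2.58% lower by 2-fold or more among all compared genes. Gata2, the GATA factor of progenitors and mast cells, had the highest ratio, at 8.41 FPKM in 4-OHT and 2.71 FPKM in ethanol (log2 ratio 1.34). Gata1 RNA thus stood at 0.887 times the level of Gata2 in 4-OHT and at 0.616 times in ethanol. Ski, a repressor gene of TGF-beta signalling, had a log2 ratio of 1.26. The lowest ratios were those of Erg, an ETS factor gene of stem cells and megakaryocytes, at 7.08 FPKM in 4-OHT and 16.6 FPKM in ethanol, and of Bcl11a, a gene of B cell development whose product also represses fetal globins, at 6.17 FPKM in 4-OHT and 14.6 FPKM in ethanol. Both had log2 ratios of -1.12.

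Within the TAL1 complex the subunits differed in direction. Ldb1, which encodes the dimerizing subunit that brings distant DNA sites together, stood at 67.1 FPKM in 4-OHT and at 92.8 FPKM in ethanol (log2 ratio -0.46). Tcf3, which encodes the E proteins E12 and E47 and is also a B cell regulator, stood at 73.2 FPKM in 4-OHT and at 120.6 FPKM in ethanol (log2 ratio -0.71). Lyl1, a close relative of Tal1, stood at 37.1 FPKM in 4-OHT and at 47.7 FPKM in ethanol, 7.24 times the level of Tal1 in 4-OHT and 36.3 times in ethanol. Tal1 and Lmo2 were therefore higher in 4-OHT while Ldb1, Tcf3 and Lyl1 were lower, each of the last 3 by less than 2-fold. The small MAF partners of NF-E2 differed in direction: Mafk stood at 18.9 FPKM in 4-OHT and 28.8 FPKM in ethanol, and Mafg at 24.0 FPKM in 4-OHT and 16.6 FPKM in ethanol. Nfe2 RNA was 2.11 times as abundant as Mafk RNA in 4-OHT and 0.308 times as abundant in ethanol. Lyl1, Mafk and Mafg were chosen after their values were seen.

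**Figure D2:**
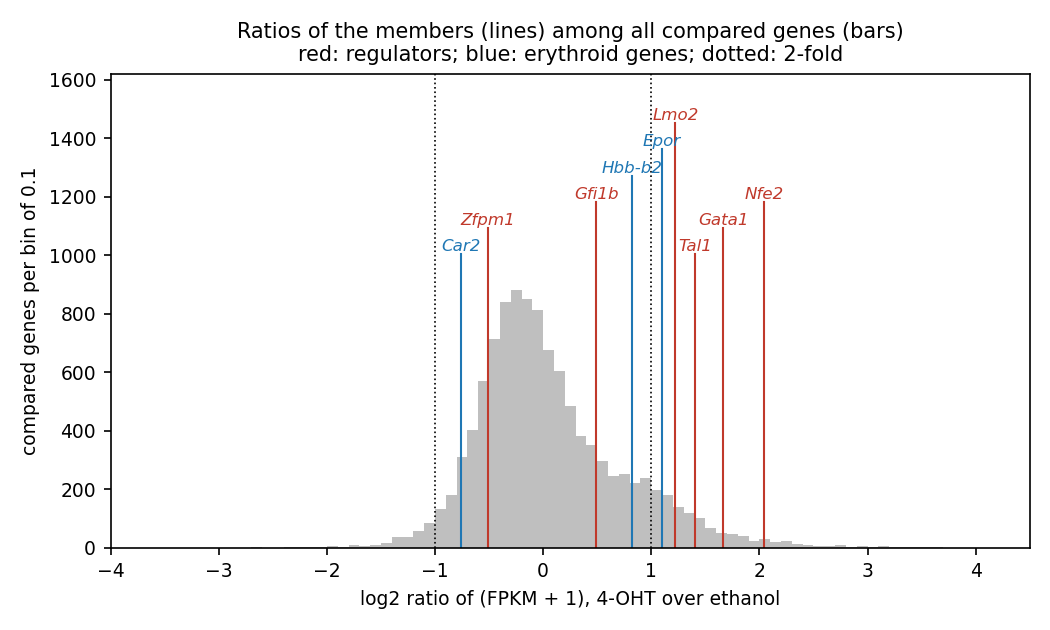
Number of compared genes (vertical axis, grey bars, bins of 0.1) by log2 ratio of (FPKM + 1) in 4-OHT over ethanol (horizontal axis), with 1 line per regulator (red) or erythroid gene (blue) and dotted lines at 2-fold. Nfe2, Gata1, Tal1 and Lmo2 lie right of the 2-fold line at 2.05, 1.66, 1.40 and 1.22, with Epor at 1.09, whereas Zfpm1 and Car2 lie at -0.51 and -0.76.

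The erythroid genes differed in direction, and the highest level among them was 9.70 FPKM, for Car2 in ethanol. Epor (chromosome 9, 21763343 to 21768020) stood at 2.13 FPKM in 4-OHT and at 0.466 FPKM in ethanol, with a log2 ratio of 1.09. Hbb-b2 (chromosome 7, 110961042 to 110962437) stood at 2.44 FPKM in 4-OHT and at 0.953 FPKM in ethanol, with a log2 ratio of 0.82. Both were below 1 FPKM in ethanol and passed the minimum only through their 4-OHT value, so that they could enter the comparison only as higher in 4-OHT. Of the compared genes with a mean below 5 FPKM, 15.5% were higher by 2-fold or more, against 8.61% of those with a mean of 5 FPKM or more. Car2 (chromosome 3, 14886426 to 14900770) stood at 5.31 FPKM in 4-OHT and at 9.70 FPKM in ethanol, a log2 ratio of -0.76 that lay above only 6.31% of the compared genes.

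Set side by side, the log2 ratios of the 7 regulators were 2.05, 1.66, 1.40, 1.22, 0.49, -0.02 and -0.51, and those of the 3 erythroid genes were 1.09, 0.82 and -0.76. The ranges overlap, and with 1 value per condition the difference between these sets of genes has no test. The order also depends on the added 1 FPKM. Without it, the deposited log2 fold changes put Epor (2.19) above Nfe2 (2.16) and Hbb-b2 (1.36) above Lmo2 (1.27). Epor and Hbb-b2 were below 1 FPKM in ethanol, where a fold is least precise. The summed level of the 6 regulators that were compared was 112 FPKM in 4-OHT and 55.7 FPKM in ethanol, and that of the 3 erythroid genes was 9.88 FPKM in 4-OHT and 11.1 FPKM in ethanol, where Car2 alone was lower in 4-OHT. In order of level, the 10 genes ran from Nfe2, Lmo2, Zfpm1, Gata1 and Car2 to Tal1, Gfi1b, Hbb-b2, Epor and Klf1 in 4-OHT, and from Zfpm1, Lmo2, Car2, Nfe2 and Gfi1b to Gata1, Tal1, Hbb-b2, Epor and Klf1 in ethanol. Without replicate values, neighbours in these orders cannot be told apart from one another.

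The reads of the row named Hbb-b2 cannot be assigned with confidence to 1 globin copy. A second adult beta-globin row, Beta-s (the RefSeq synonym of Hbb-bs), stood at 5.69 FPKM in 4-OHT and at 0.614 FPKM in ethanol, a log2 ratio of 2.05. Like Hbb-b2, it passed the minimum of 1 FPKM only through its 4-OHT value and could enter only as higher. Beta-s was 2.33 times as abundant as Hbb-b2 in 4-OHT and 0.645 times as abundant in ethanol, where both were below 1 FPKM. The Hbb-b2 row starts 13995 bases before Beta-s on mm9 and is 1396 bases long. In the RefSeq genes of GRCm38, Hbb-bt starts 13999 bases before Hbb-bs and is 1400 bases long, whereas the gene named Hbb-b2 is 1374 bases long. By this spacing the row lies near the place of Hbb-bt. The coding sequences of Hbb-bs and Hbb-bt in GENCODE M21 (GRCm38, chromosome 7) are 444 bases long and differ at 1 base, the substitution C417T from Hbb-bs to Hbb-bt, counted from 1 at the first base of the start codon. Their last 60 coding bases, coding bases 385 to 444, are printed to show how little separates the copies, with the differing base in capitals.
Hbb-bs: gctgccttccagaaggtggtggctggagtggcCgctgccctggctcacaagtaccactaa
Hbb-bt: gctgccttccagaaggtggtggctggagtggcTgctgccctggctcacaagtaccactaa

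Reads from either gene could therefore be shared between the 2 rows over 416 coding bases in a run, the split between Beta-s and Hbb-b2 is uncertain, and which copy the Hbb-b2 row counts was not tested. The mice are also a cross of C57BL/6 and 129S1/SvlmJ, and the table was made on 1 reference genome.

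Several genes that define maturing red cells were at or near 0, while others of the same lists were expressed. Of all rows of the table, 47.3% were below 1 FPKM in both conditions. Of 10 listed globin and globin chaperone genes, 4 matched a row. Beta-s alone was compared, the embryonic gene Hbb-y stood at 0.0741 FPKM in 4-OHT and 0.0614 FPKM in ethanol, and the embryonic genes Hbb-bh1 and Hba-x are listed at 0. The other 6 names, among them the alpha-globin genes Hba-a1 and Hba-a2 and the chaperone gene Ahsp, were not analysed here. Of 18 matched genes of the red cell membrane and skeleton, 11 were below 1 FPKM in both conditions. These include Slc4a1 (the band 3 anion exchanger), at 0.0116 FPKM in 4-OHT and 0.00334 FPKM in ethanol, with Rhag listed at 0. Of 18 matched late erythroid genes of other compartments, 8 were below 1 FPKM in both, a share no higher than that of all rows. Hemgn, a nuclear protein gene of red cell precursors, stood at 0.567 FPKM in 4-OHT and 0.130 FPKM in ethanol, and Car1, the other carbonic anhydrase gene of red cells, is listed at 0. A listed 0 can be a failed estimate.

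**Figure D3:**
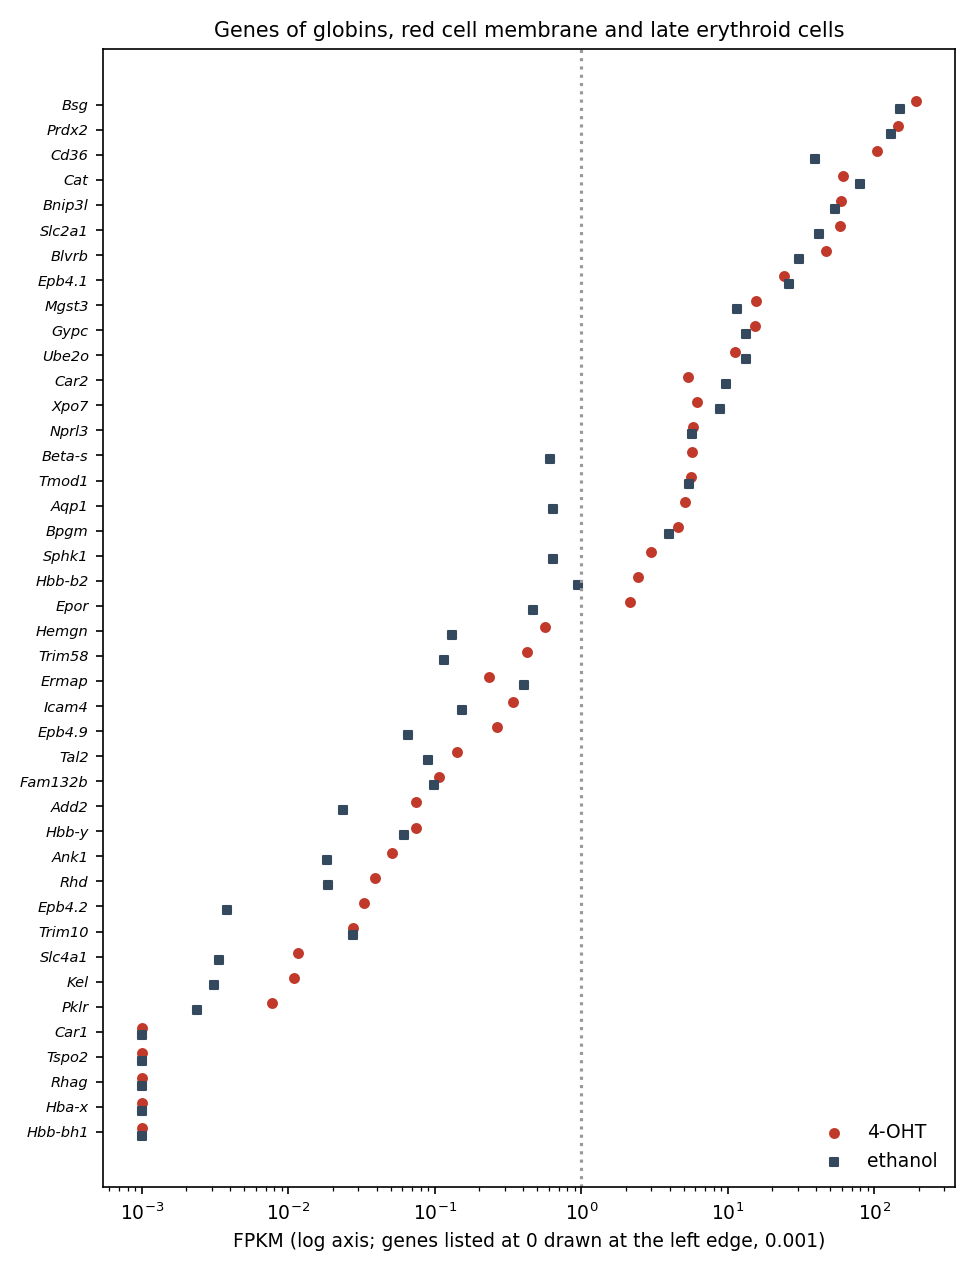
FPKM (horizontal log axis) of Epor, Car2, Hbb-b2 and the matched genes of the globin, red cell membrane and late erythroid lists (1 membrane gene left out), 1 gene per line ordered by its higher value, in 4-OHT (red circles) and ethanol (dark squares), with 1 FPKM dotted and listed zeros drawn at the left edge. Slc4a1, Hemgn and Hbb-y lie left of 1 FPKM in both conditions, and Epor, Hbb-b2 and Beta-s lie right of it in 4-OHT alone.

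Of all compared genes, 10.4% were higher and 2.58% lower by 2-fold or more. In the membrane list 7 genes were compared, with 2 higher by 2-fold or more, none lower by 2-fold or more and a median log2 ratio of 0.37. The 2 were Aqp1, a water channel gene that endothelium expresses too, at 5.12 FPKM in 4-OHT and 0.641 FPKM in ethanol, and Cd36, a scavenger receptor gene also of macrophages, platelets and endothelium, at 104.0 FPKM in 4-OHT and 39.3 FPKM in ethanol. Aqp1 passed the minimum only through its 4-OHT value and could enter only as higher. Bsg, a widely expressed surface glycoprotein gene, had the highest level, at 192 FPKM in 4-OHT and 148 FPKM in ethanol, and Epb4.1 and Tmod1, genes of the membrane skeleton, had log2 ratios of -0.10 and 0.04. In the late erythroid list 10 genes were compared, with none lower by 2-fold or more and a median of 0.15. Of the 10, 1 was higher by 2-fold or more, a share near the 10.4% of all compared genes. That gene was Sphk1, a sphingosine kinase gene of many tissues, with a log2 ratio of 1.28, at 2.996 FPKM in 4-OHT and 0.642 FPKM in ethanol, so that it too entered only through 4-OHT. Blvrb, which encodes a biliverdin reductase, had a log2 ratio of 0.58, the antioxidant genes Prdx2 and Cat had 0.17 and -0.39, and Xpo7, a nuclear export gene, had -0.46.

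Among the genes of haem synthesis the housekeeping form of the first enzyme was abundant and the erythroid form was near 0. Of 13 genes of haem synthesis and its iron supply, 12 were compared, 1 was higher by 2-fold or more and none lower by 2-fold or more, with a median log2 ratio of -0.18. That 1 of 12 is near the 10.4% of all compared genes that were higher by 2-fold or more. The higher gene was Alas1, the first enzyme of the pathway in non-erythroid cells, at 75.4 FPKM in 4-OHT and 23.4 FPKM in ethanol (log2 ratio 1.65). Its erythroid counterpart Alas2, a GATA1 target in red cells, stood at 0.0894 FPKM in 4-OHT and 0.0105 FPKM in ethanol. Fech, which encodes ferrochelatase, the last enzyme, had a log2 ratio of 0.62, and Tfrc, the transferrin receptor gene, stood at 79.1 FPKM in 4-OHT and 85.9 FPKM in ethanol. The lowest ratios were those of the intermediate enzymes Uros and Cpox, at -0.66 and -0.55.

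Genes that relay the erythropoietin signal, most of them shared with other cytokine receptors, lay on both sides of 0. All 16 were compared, with 3 higher by 2-fold or more, 3 lower by 2-fold or more and a median log2 ratio of 0.04. Among all compared genes, 10.4% were higher and 2.58% lower by 2-fold or more. Kit, the stem cell factor receptor gene that erythroid progenitors and mast cells share, had the highest ratio, 1.69, followed by Ptpn6, the gene of the phosphatase SHP-1 that switches the receptor off, at 104 FPKM in 4-OHT and 39.1 FPKM in ethanol. The feedback inhibitor genes Socs2 and Socs1 had the lowest ratios, -1.68 and -1.22, while Socs3, of the same family, had 1.04 (16.9 FPKM in 4-OHT, 7.72 FPKM in ethanol), and Pim1, a survival kinase gene, had -0.52. Kit was below 1 FPKM in ethanol and entered only through 4-OHT. Jak2, the kinase bound to the receptor, stood at 22.5 FPKM in 4-OHT and 12.8 FPKM in ethanol. Cish, Socs3 and Jak2 were chosen after their values were seen.

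Car2 had the same direction as its neighbour Car3. Car3, whose row lies 14052 bases before Car2 on chromosome 3, stood at 2.89 FPKM in 4-OHT and at 6.28 FPKM in ethanol (log2 ratio -0.90). Among all compared genes, 10.4% were higher and 2.58% lower by 2-fold or more. Of 15 other carbonic anhydrase genes, 5 were compared, none was higher by 2-fold or more and 1 was lower by 2-fold or more, with a median of -0.03. The lower one was Car12, a membrane-bound form, at 2.34 FPKM in 4-OHT and 7.24 FPKM in ethanol. Car13, another gene of the cluster that holds Car2, stood at 6.70 FPKM in 4-OHT and 6.89 FPKM in ethanol. Car9, a hypoxia-induced form, had a log2 ratio of 0.85 and Car15 one of 0.14. Car9 was below 1 FPKM in ethanol, passed the minimum only through 4-OHT and could enter only as higher.

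Markers of other cells that use these regulators differed in the same comparison, and their part in the results above was not tested. In bulk RNA, fewer cells of a type and less RNA per cell cannot be told apart. Summed levels are over the compared genes of a list. Of these, 1 megakaryocyte, 1 mast cell, 1 eosinophil and 4 stromal and endothelial markers were below 1 FPKM in ethanol and passed the minimum only through 4-OHT. Among all compared genes, 10.4% were higher by 2-fold or more. All 22 megakaryocyte and platelet markers were compared, none was at 0, and 20 were higher by 2-fold or more, with a median log2 ratio of 1.57. Their summed level was 1158 FPKM in 4-OHT and 327 FPKM in ethanol. The chemokine genes Pf4 (585 FPKM in 4-OHT, 156 FPKM in ethanol) and Ppbp (149.8 FPKM in 4-OHT, 42.8 FPKM in ethanol) were the most abundant. The von Willebrand receptor gene Gp1bb, in a row merged with Sept5, and the adhesion gene Selp had the highest ratios, 4.53-fold and 4.30-fold higher, and the platelet receptor genes Gp6 and P2ry12 had the lowest, 1.82-fold and 1.30-fold higher.

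Of 14 mast cell and basophil markers, 10 were compared and 8 of these were higher by 2-fold or more, against 10.4% of all compared genes. Their median was 1.33 and their summed level was 274 FPKM in 4-OHT and 78.2 FPKM in ethanol, over the 10 compared. Gata2 and Kit, both among the 8, were also counted above, in the partner list and the erythropoietin signalling list. The highest ratios were those of Hdc, the histamine-synthesizing enzyme gene, at 2.18 and of the basophil protease gene Mcpt8 at 2.12. The basophil protease gene Prss34 was the most abundant, at 107 FPKM in 4-OHT and 34.2 FPKM in ethanol, and Ms4a2 and Mitf had the lowest ratios, at 0.95 and 0.76. The 4 genes below 1 FPKM in both conditions were the mast cell protease genes Cma1, Tpsb2 and Tpsab1 and the cytokine gene Il4. Of 9 eosinophil markers 8 were compared and 5 were higher by 2-fold or more, with a median of 1.05 and sums of 169 FPKM in 4-OHT and 56.5 FPKM in ethanol. They were led by Prg2, the major basic protein gene, at 95.9 FPKM in 4-OHT and 24.2 FPKM in ethanol, while Il5ra, the interleukin 5 receptor gene, was lower, at 0.455 FPKM in 4-OHT and 1.80 FPKM in ethanol. Il5ra passed the minimum of 1 FPKM only through its ethanol value and could enter only as lower.

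The remaining marker lists differed as well. Their counts stand against 10.4% higher and 2.58% lower by 2-fold or more among all compared genes. Neutrophil markers summed to 3500.4 FPKM in 4-OHT and 368 FPKM in ethanol (10 of 12 compared, all 10 higher by 2-fold or more, median 3.26). Macrophage markers summed to 1807 FPKM in 4-OHT and 788 FPKM in ethanol (9 of 10 compared, 8 higher by 2-fold or more, median 1.20). The macrophage gene left out of that sum is Lyz2, a lysozyme gene listed at 0 in 4-OHT and at 3835 FPKM in ethanol, so that with it the sum would be lower in 4-OHT; a listed 0 can be a failed estimate. Stromal and endothelial markers summed to 507 FPKM in 4-OHT and 48.7 FPKM in ethanol (10 of 12 compared, 9 higher by 2-fold or more, median 2.72). Of these cells, endothelium is the type named above as using Tal1 and Lmo2. The collagen genes Col3a1 and Col1a1 had the highest log2 ratios, 4.30 and 4.01, with Col1a1 at 127 FPKM in 4-OHT and 6.91 FPKM in ethanol. The compared endothelial genes Cdh5, Kdr, Pecam1 and Eng had log2 ratios of 2.79, 1.27, 1.13 and 0.98. Of the 10 B cell markers, none was higher by 2-fold or more and 5 were lower by 2-fold or more, with a median of -0.998.

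**Figure D4:**
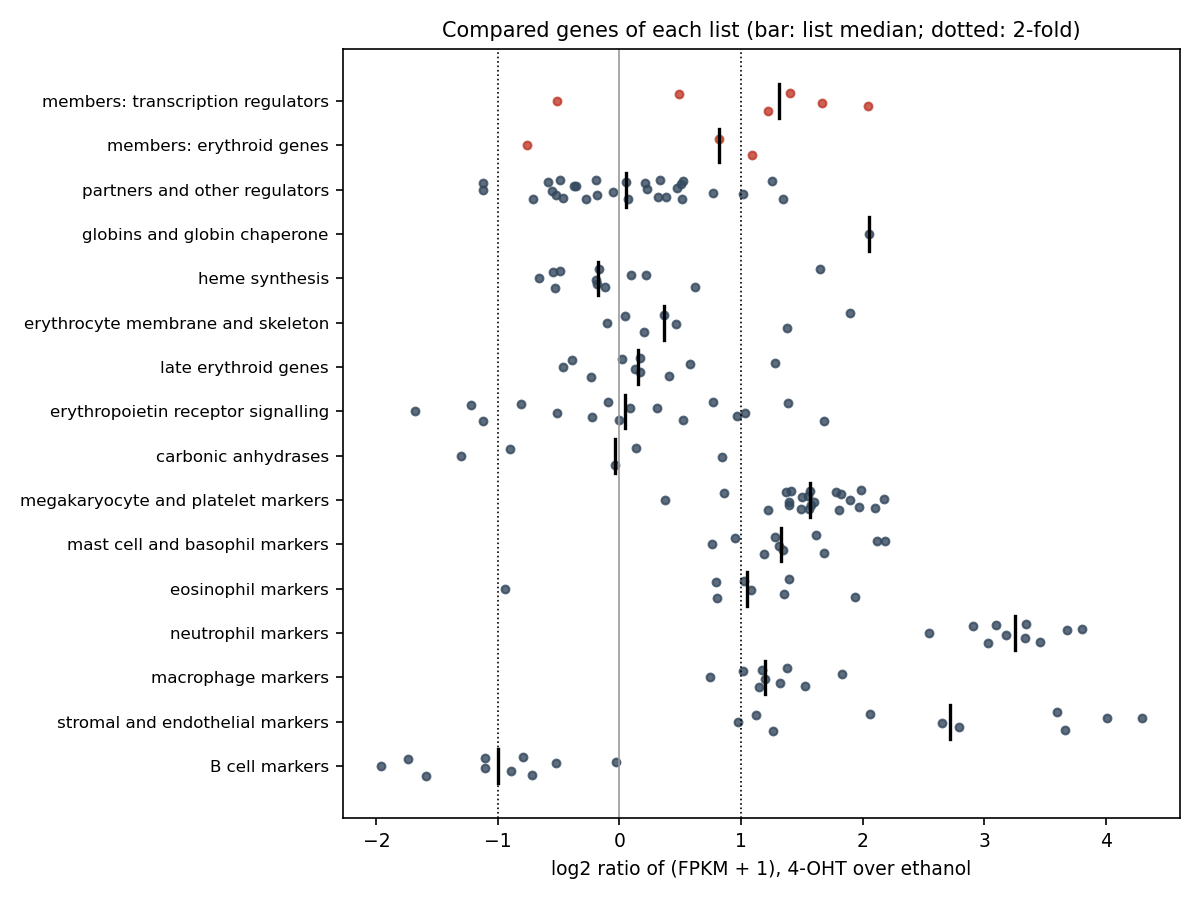
Log2 ratio of (FPKM + 1) in 4-OHT over ethanol (horizontal axis) of each compared gene (points) of the 2 sets described (red) and of 14 other gene lists (dark), 1 list per line, with the list median as a black bar and 2-fold dotted. The megakaryocyte and platelet list has its median at 1.57, the partner list at 0.05 and the haem synthesis list at -0.18.

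The genes nearest to each of the 9 in level came from several lists. Likeness was the Euclidean distance of log2 (FPKM + 1) over the 2 conditions, searched over 157 compared genes of the lists. The nearest gene to Nfe2 was Itgb3, the integrin beta chain of the platelet fibrinogen receptor (37.7 FPKM in 4-OHT, 8.87 FPKM in ethanol, distance 0.0750). The nearest to Tal1 was Mmrn1, which encodes multimerin of platelets (5.41 FPKM in 4-OHT, 1.19 FPKM in ethanol, distance 0.106), and the nearest to Gata1 was F2rl2, a thrombin receptor gene (7.84 FPKM in 4-OHT, 1.97 FPKM in ethanol, distance 0.165). For Lmo2 it was Pecam1, a gene of endothelium and platelets (34.9 FPKM in 4-OHT, 15.5 FPKM in ethanol), for Epor it was Car9, for Gfi1b the mast cell gene Mitf, for Zfpm1 its list partner Mafk, for Car2 Xpo7 and for Hbb-b2 the eosinophil gene Ear6 (distance 0.0594, the smallest of the 9). Of all compared genes, 2 lay as near to Nfe2 as Itgb3, 6 as near to Tal1 as Mmrn1 and 12 as near to Gata1 as F2rl2, those genes included. On the same count, 6 lay as near to Lmo2 as Pecam1 and 10 as near to Hbb-b2 as Ear6. The other counts were larger, with 80 as near to Epor as Car9 and 93 as near to Car2 as Xpo7. Epor and Car9 both passed the minimum of 1 FPKM only through 4-OHT. For Zfpm1 and Mafk the count was 176, and for Gfi1b and Mitf it was 182. These counts also depend on how many genes lie at a given level and ratio, so they do not rank the matches. A profile of 2 values is weak.

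No row of the table overlapped the locus of any of them. Of the 20 adjacent rows, 17 were compared, 3 were higher by 2-fold or more, against 10.4% of all compared genes, and none was lower by 2-fold or more. The 3 were Pdzk1ip1, 16952 bases after Tal1, at 17.4 FPKM in 4-OHT and 5.32 FPKM in ethanol (log2 ratio 1.54), Beta-s, and Gm9733. Beta-s is the next row after Hbb-b2, at a gap of 12599 bases. Gm9733 is the next row after Car2, but at a gap of 395780 bases. Beta-s, which may share reads with Hbb-b2, passed the minimum only through 4-OHT and could be counted only as higher. On the other side of Tal1, Stil, a centriole assembly gene, stood at 3.85 FPKM in 4-OHT and 7.25 FPKM in ethanol. Hdac6 beside Gata1 had a log2 ratio of -0.29, and the rows on either side of Nfe2, Hnrnpa1 (merged with a predicted gene) and Copz1, had -0.54 and 0.27. These neighbours were chosen by position.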

How the data were processed

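Bone marrow B cell RNA was profiled by paired-end sequencing in 6 libraries, 3 per condition. The authors deposited FPKM, 1 value per gene and condition. The way the libraries of a condition were combined is not given in the sources used. The submitters' processing notes name CASAVA, Cufflinks 2.1.1, TopHat2 2.0.9 and build mm9. The authors' log2 column, as deposited, equals the log2 of 4-OHT over ethanol FPKM within 0.01 in all 15756 rows above 0 in both.

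Groups follow the treatment in the characteristics. The ratio is log2 of (FPKM + 1), over rows that averaged 1 FPKM or more and were above 0 in each condition. A difference was counted from 2-fold. The planned limma fit could not be run on 1 value per condition, so no test, SD or interval is given. The table gives no transcript lengths, recovery of whole reads from the FPKM was not pursued, and read depth is unknown here.

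The 10 genes and the 14 other lists were chosen with earlier results of these data known. Genes named are drawn, per list, from the 2 highest and 2 lowest ratios and the 2 highest means; others were chosen after their values were seen, or as members below 1 FPKM, in the TAL1 and NF-E2 complexes or adjacent on the chromosome. Locus starts were counted from 0 (lengths equal to RefSeq in 6341 rows, against 437 if counted from 1), so 1 was added. Motifs were searched in the 250 bases before each start; their letters were settled after counts had been seen, when a composite of GATA and E-box letters was dropped and a longer KLF pattern was shortened to CACCC. The rows that set the median-of-ratios factor were also settled after seeing its output, and both versions are among the alternatives. The ratio, the 2-fold count and the scalings were checked on simulated FPKM with known folds. Software was pandas 2.3.3, numpy 2.4.6, matplotlib 3.10.9 and Python 3.11.15. Some genes of the lists enter the counts but are not reported here by name. The alternatives tried were pseudocounts, filters, scalings and the deposited fold changes.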

Additional observations from a re-analysis of the deposited data

How the results depend on the processing

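No paired analysis was possible because no library has its own column, which is also why the replicate block and leaving out each library were not run. With a minimum mean of 5 FPKM, where fewer genes were compared, 700 genes were higher by 2-fold or more (1124 as reported), and 2 of the regulators (Nfe2 and Lmo2) and 0 of the erythroid genes were, since Gata1, Tal1, Epor and Hbb-b2 have lower means. Genes lower by 2-fold or more numbered 457 with a pseudocount of 0.1 and 482 in the authors' deposited table, against 280. The erythroid count, 1 as reported, was 2 with a pseudocount of 0.1, with one of 0.5 and in the authors' deposited table, where Hbb-b2 had log2 ratios of 1.27, 1.02 and 1.36. It was 0 under quantile normalization, where Epor had 0.80, and 0 with a minimum of 1 FPKM in ethanol, an alternative chosen after the data were seen, where Epor and Hbb-b2 are not compared. With the median-of-ratios factor taken from all rows above 0, also chosen after the data were seen, the median of all compared genes was -0.12 (-0.07 as reported) and 4 regulators and 1 erythroid gene were higher by 2-fold or more, as reported. Pseudocounts, filters and the deposited fold changes cannot change the sign of a gene. Under the scalings, which can, none of the 10 changed sign. Klf1 was near 0 in both conditions, so its sign cannot be read. The ranges that follow are over all the alternatives. Nfe2 ran from 1.99 to 2.16, Gata1 from 1.49 to 2.16, Tal1 from 1.20 to 1.96, Lmo2 from 1.16 to 1.30, Gfi1b from 0.34 to 0.62, Zfpm1 from -0.57 to -0.44, Epor from 0.80 to 2.19, Hbb-b2 from 0.50 to 1.36 and Car2 from -0.87 to -0.69. With no filter on low values the median was 0.06 for the membrane list (0.37 as reported), 0.04 for the late erythroid list (0.15) and 0.01 for the globin list (2.05, from Beta-s alone). The medians of the partner, erythropoietin signalling and carbonic anhydrase lists, all near 0, took the other sign under 1 or more scalings or filters. Levels near or below 1 FPKM carry the least precision, and without counts it cannot be stated.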
